A study of Malus domestica with 12 samples.

Results

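The data describe 10 unnamed small RNAs of dormant apple buds, those with the most reads among the unnamed sequences of 20 to 23 nucleotides. They were chosen from 370 distinct mature sequences, of which 254 carried a name from a miRNA database and 116 carried only a number; 20 of these 116 had 20 to 23 nucleotides and 96 had 24. Of the 20, 4 were set aside by name, with results of these data known, and the 10 with the most raw reads summed over all libraries were kept from the remaining 16. The last one kept, t10644006_x200, had 200 reads and the first one left out, t05186586_x137, had 137. Because read totals chose the members, their levels are given as a description, and because the sequences set aside were chosen with their changes known, a lack of changes among the 10 is in part fixed by the choice.

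Apical buds of *Malus domestica* "Golden Delicious" were sampled over a winter at 4 stages, with 3 libraries per stage, each from a pool of buds of several trees. Late endodormancy (Stage 2, 1098 chilling hours), early ecodormancy (Stage 3, 1280 chilling hours) and late ecodormancy (Stage 4, 1395 chilling hours) were compared with early endodormancy (Stage 1, 665 chilling hours), and ecodormancy as a whole with endodormancy. Small RNAs were isolated with the TraPR kit, which retains small RNAs bound to ARGONAUTE proteins. The libraries of a stage were collected together, so that stage and sampling date cannot be told apart.

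In plants, miRNAs are cut by DICER-LIKE proteins from the stem of a hairpin transcript as a duplex of a mature strand and a star strand that comes from the opposite arm. One strand is loaded onto an ARGONAUTE protein and guides the cleavage or the translational repression of complementary mRNAs. Endodormant buds cannot resume growth until enough cold has accumulated, and ecodormant buds wait only for warm temperatures.

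The mature sequences of all 10 members are shown because they carry no name by which they could be looked up. The seed (bases 2 to 8, counted from the 5′ end) is in capitals, and T stands for U as in the deposited table.
t04954913_x13904: cGGATCCCgccttgcatcaac
t04866336_x5364: aTCGTCGTcttggctgtccac
t02782125_x1861: tGGTATCGtttctgtaggttt
t09078889_x1129: tTGGATCAggcttcattcccc
t05533652_x933: tTGGATAAaaaatgaacggtc
t00614980_x824: tCAGATGGtagaaaggatgcaa
t01962011_x583: tTAATTAGgtgtatggtgagc
t08517492_x488: tTGTCGCAtgagagatggtac
t03187209_x304: aGCTGCCGactcattcactc
t10644006_x200: cAGGGAAGaggtagagcatgg

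Among the 10, 8 had 21 nucleotides, t00614980_x824 had 22 and t03187209_x304 had 20. No seed was shared between members. Only the seed of t03187209_x304 occurred in another sequence of the tables, t03063567_x79 with 79 reads. The first base was T in 6 members, A in 2, C in 2 and G in 0, whereas A was first in 86 of the 96 unnamed sequences of 24 nucleotides and T was first in 157 of the 254 named sequences. The number after the x in each name is the read total of that sequence over the 12 libraries.

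The members were rare beside the miR166 family, which took between 66.2% and 91.4% of the mature reads of a library. Mature reads ranged between 561723 and 2307267 per library, and the members together took 0.173% ± 0.0421 of them (SD, n = 12). The share was lowest in library L (0.108%, 95% Wilson interval 0.103 to 0.112) and highest in library J (0.235%, 0.223 to 0.248), and these intervals cover counting error only. By stage, it averaged 0.143% ± 0.00330 in Stage 1, 0.159% ± 0.0384 in Stage 2, 0.212% ± 0.00639 in Stage 3 and 0.179% ± 0.0651 in Stage 4 (SD, n = 3 each). Over the reads outside the miR166 family, the share was 1.00% ± 0.181 (SD, n = 12), with means of 0.936% ± 0.0778 in Stage 1, 1.17% ± 0.0548 in Stage 2, 0.812% ± 0.183 in Stage 3 and 1.103% ± 0.143 in Stage 4 (SD, n = 3 each). Stage 3 thus had the highest mean over all mature reads and the lowest over the reads outside this family.

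Libraries D (Stage 2) and L (Stage 4) stood apart from the others. Among 138 sequences with 10 or more reads in each of the other 10 libraries, 15 were listed at 0 in D and 10 in L. The other libraries were each counted in the same way, with D and L left aside. Library I was at 0 for 5 of 144 such sequences, C for 2 of 147 and G for 1 of 139, and the rest for none. Of the members, 5 were listed at 0 in L, 2 in D and 1 in library E (Stage 2), and none in the other libraries. A 0 in these libraries is therefore given as a listed 0, the part of these zeros in the comparisons was checked by leaving D and L out, and their cause was not tested.

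All 10 members came from hairpins that the authors placed on the GDDH13 v1.1 genome. The 12 loci lay on 10 chromosomes, and no gene annotation of that build was used here. A single locus was listed for 8 members, while t05533652_x933 and t10644006_x200 had more than 1. The hairpins were 84 to 239 bases long, and the minimum free energy calculated with RNAfold ranged between -97.7 and -29.2 kcal/mol. Between 0 and 5 bases of a mature sequence were unpaired in the predicted fold. The median free energy per base was -0.48 kcal/mol in the members, against -0.40 kcal/mol in the 10 other unnamed sequences of 20 to 23 nucleotides and -0.41 kcal/mol in the 96 of 24 nucleotides, and these values were not tested.

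**Figure D1:**
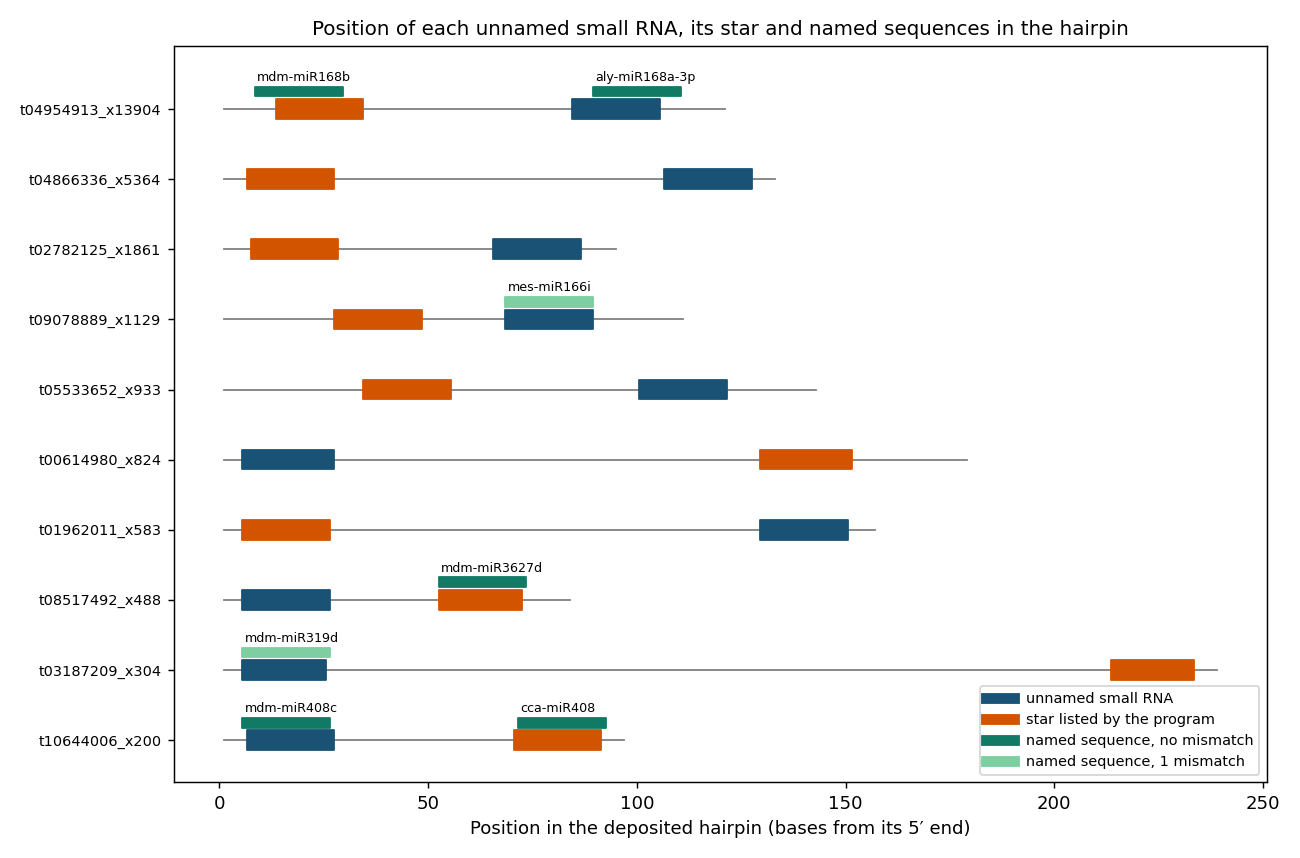
Each grey line is the deposited hairpin of 1 member (first locus), with the position in bases from its 5′ end on the horizontal axis; bars mark the unnamed small RNA, the star listed by the program and, above them, named sequences of the tables found in the hairpin (1 per starting position; cpa-miR166e, which lies within the t09078889_x1129 stretch, is not drawn). Named sequences are drawn in 5 of the 10 hairpins. In those of t04954913_x13904 and t10644006_x200, they lie on both arms, where aly-miR168a-3p and mdm-miR408c overlap the member. In that of t08517492_x488, mdm-miR3627d lies on the arm opposite the member. In those of t09078889_x1129 and t03187209_x304, the named sequences match the stretch of the member itself with 1 mismatch.

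Although none of the 10 carried a name, 5 of them lay in a hairpin that matches a named sequence with at most 1 mismatch. In the hairpins of t09078889_x1129 and t03187209_x304, this match had 1 mismatch and lay over the member itself, so the exact named sequence was not in the hairpin. These were hairpins with sequences of the miR168, miR166, miR3627, miR319 and miR408 families. The remaining 5, t04866336_x5364, t02782125_x1861, t05533652_x933, t00614980_x824 and t01962011_x583, had no named sequence in the hairpin and none with 3 or fewer mismatches over at least 17 bases.

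The member with the most reads, t04954913_x13904, came from the 3′ arm of a hairpin whose 5′ arm holds mdm-miR168b without a mismatch. In Arabidopsis, miR168 targets the mRNA of ARGONAUTE1, the main miRNA-binding protein. The hairpin lies at chr6:1481600-1481720 on the minus strand. It is printed because it holds both an unnamed and a named strand, in capitals, with mdm-miR168b first and the member second.
Hairpin of t04954913_x13904: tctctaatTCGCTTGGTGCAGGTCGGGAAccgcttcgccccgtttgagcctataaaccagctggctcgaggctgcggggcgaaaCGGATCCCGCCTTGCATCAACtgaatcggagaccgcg
The listed star is shifted against mdm-miR168b. It starts 5 bases further along the 5′ arm, shares 16 bases with it and reads as follows.
Star of t04954913_x13904: tggtgcaggtcgggaaccgct
Shorter forms of mdm-miR168b, named gma-miR168b and cme-miR168, start at the same base of the 5′ arm and had 18 and 4 reads. On the 3′ arm, aly-miR168a-3p overlaps the member and had 6 reads, all in library A.

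The unnamed strand was far more abundant than the named one. It had 13904 reads, against 744 of mdm-miR168b, which is 18.7 times as many. In the order of libraries A to L, it had 1660, 1108, 860, 1331, 1113, 1026, 1410, 645, 1277, 642, 972 and 1860 reads. In the same order, mdm-miR168b had 128, 63, 38, 83, 16, 75, 27, 33, 84, 10, 34 and 153 reads. The unnamed strand was above mdm-miR168b in 12 of 12 libraries, by 12.2 to 69.6 times. The authors' handling of reads that fit several loci was not given in the sources used here, and mdm-miR168b may also come from other loci, so these are reads of a sequence and not of a locus.

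**Figure D2:**
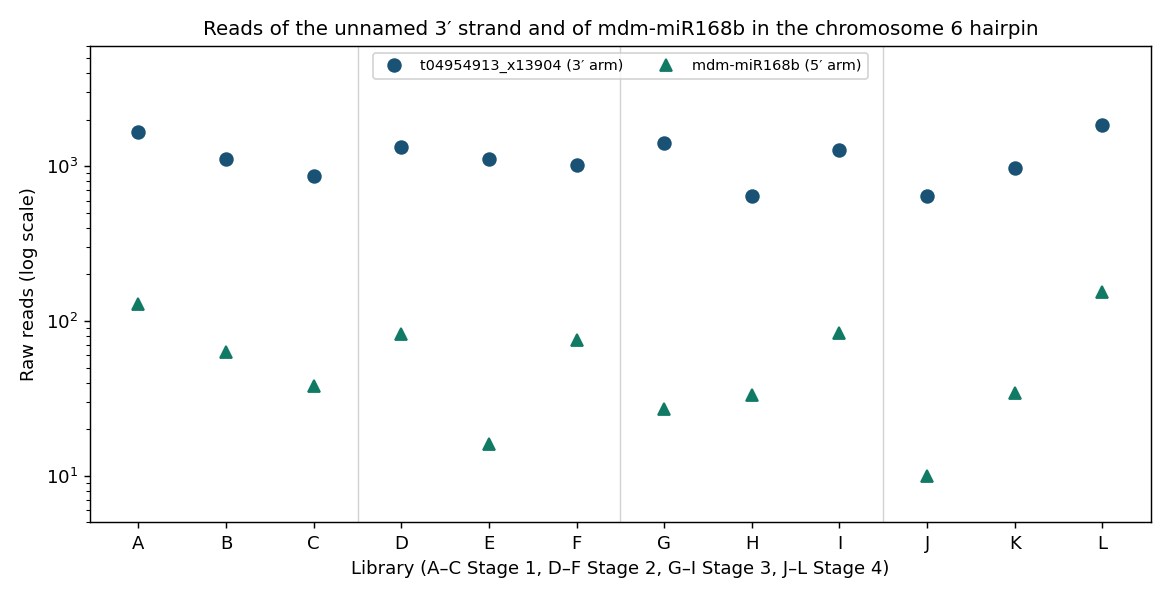
Raw reads (log scale) of the unnamed 3′ strand t04954913_x13904 and of mdm-miR168b in each of the 12 libraries, with grey lines between the stages. The unnamed strand (642 to 1860 reads) lies above mdm-miR168b (10 to 153 reads) in every library.

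Levels across the stages are given as CPM (counts per 1000000 mature reads), with the library totals scaled by the trimmed mean of M values (TMM). Stage differences were tested with the quasi-likelihood F test of edgeR on 238 sequences that passed a filter on low counts, with p-values adjusted by Benjamini-Hochberg over all 238. All 10 members passed the filter, which needs reads in only as many libraries as a stage holds.

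No member passed the test for a change between stages. At an adjusted p under 0.05, 0 of 10 members were called for any change among the 4 stages, where 1.26% of all tested sequences were called. Likewise, 0 of 10 were called at Stage 2 against Stage 1 (0% of all), at Stage 3 against Stage 1 (0.42%), at Stage 4 against Stage 1 (1.26%) and in ecodormancy against endodormancy (1.26%). At an unadjusted p of 0.05 or less, the same edgeR test gave 0 of 10 members for any change (10.9% of all), 0 at Stage 2 (5.04%), 0 at Stage 3 (9.66%), 1 at Stage 4 (10.5%) and 1 in ecodormancy (10.1%). That 1 member was t09078889_x1129 in both comparisons. By DESeq2, 2 of 10 members had such an unadjusted p for any change (10.3% of 369 sequences), 0 for Stage 2 (4.07%), 1 for Stage 3 (6.5%), 2 for Stage 4 (10.3%) and 1 in ecodormancy (8.67%). Past an adjusted p of 0.05, DESeq2 called 0 of 10 members in each comparison with Stage 1 and in ecodormancy. Beside this, it called 0%, 1.63%, 1.9% and 2.17% of 369 sequences. For any change it called no member either, beside 15.4% of the 104 sequences that it gave an adjusted p. A member without an adjusted p counted there as not called, and how many of the 10 were among the 104 is not given here. By the likelihood ratio test of edgeR, the members with an unadjusted p of 0.05 or less were 0 for any change (14.3% of 238), 0 for Stage 2 (4.2%), 0 for Stage 3 (8.82%), 2 for Stage 4 (11.3%) and 1 in ecodormancy (11.8%). Again 0 of 10 passed after adjustment, beside 2.52% of all for any change and 0%, 0.42%, 1.68% and 2.94% in the other comparisons.

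The signs of the fitted differences are given as counts, beside those over all tested sequences. Between Stage 4 and Stage 1, 8 of 10 log2 fold changes were negative, with a median of -0.70, beside 118 of 238 and a median of 0.04 over all tested sequences. In the same comparison, 7 of the 10 other unnamed sequences of 20 to 23 nucleotides were negative (median -0.56). So were 80 of 125 named ones (median -0.32). Among the unnamed ones of 24 nucleotides, 23 of 93 were negative (median 0.55). Between ecodormancy and endodormancy, 8 of 10 members were negative as well, with a median of -0.23, beside 109 of 238 and a median of 0.07. Here 4 of the 10 other unnamed ones of 20 to 23 nucleotides, 60 of 125 named ones and 37 of 93 of 24 nucleotides were negative. At Stage 3 against Stage 1, 3 of 10 members were negative, with a median of 0.35, beside 104 of 238 and a median of 0.15. Scaling by the total of mature reads moved all sequences upwards, so that 5 of 10 members were negative between Stage 4 and Stage 1, beside 66 of 238 sequences, and 2 of 10 between ecodormancy and endodormancy, beside 49 of 238. Without libraries D and L, these counts were 7 of 10, beside 105 of 242, and 4 of 10, beside 87 of 242. In library L of Stage 4, 5 of the 10 members were listed at 0.

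**Figure D3:**
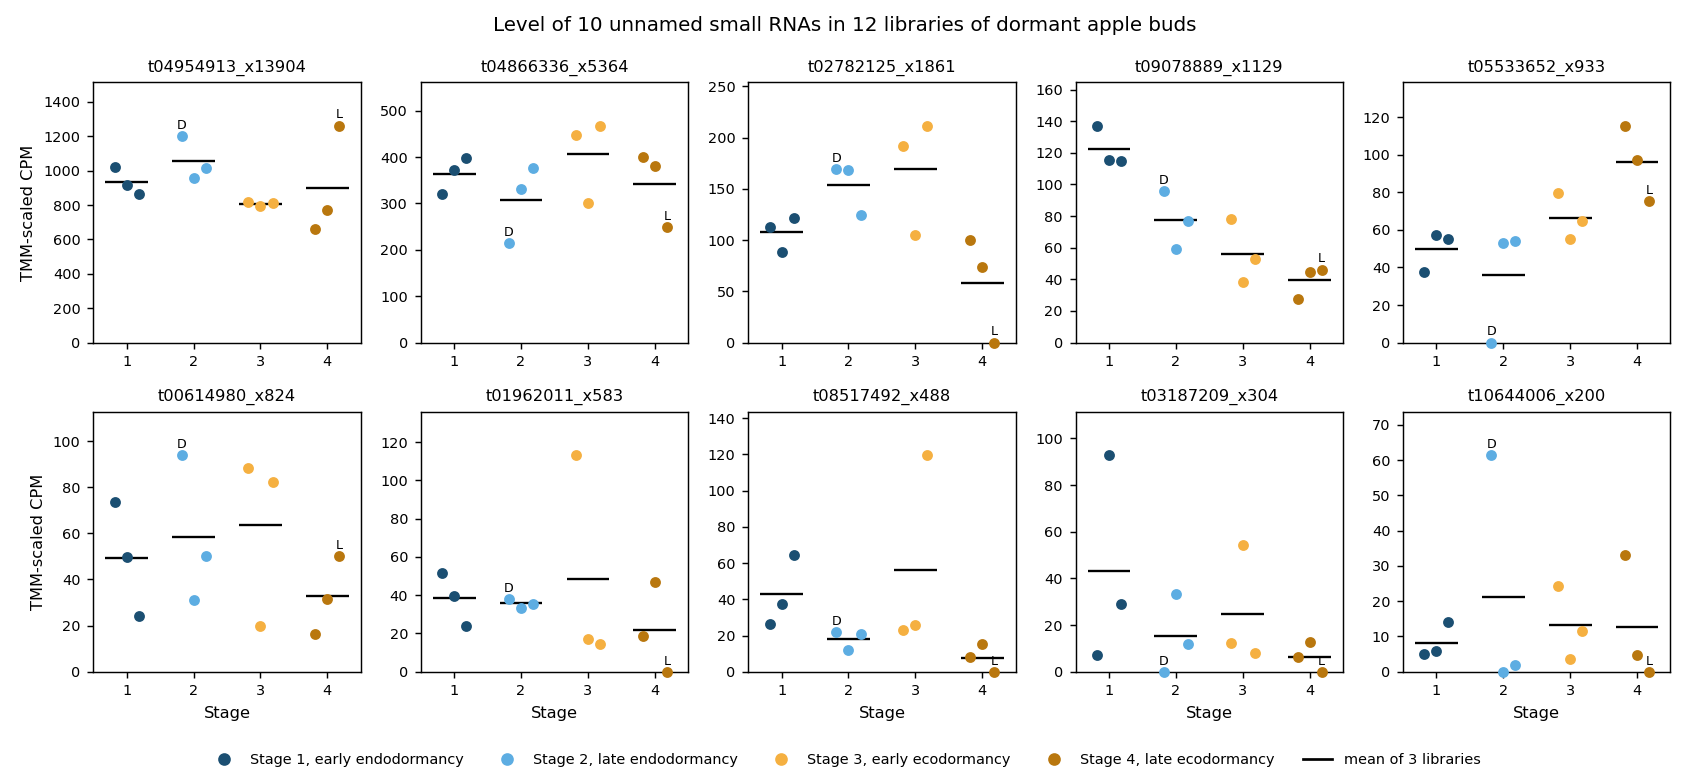
TMM-scaled CPM of each member in each library by stage (points; horizontal lines are means of 3 libraries), with libraries D and L marked by their letter. Only t09078889_x1129 has all Stage 2, 3 and 4 libraries below all Stage 1 libraries, and the zeros of D and L are visible in 6 of the panels.

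The lowest p among the members belonged to t09078889_x1129, which is close to miR166, a family known in Arabidopsis for targeting mRNAs of class III homeodomain-leucine zipper transcription factors in meristems and leaves. It lay on the 3′ arm of a hairpin at chr7:35708190-35708300 on the plus strand. In counts from the 5′ end of the named sequence, it differed by C6T from mes-miR166i and by C2T and C6T from mdm-miR166d, the most abundant sequence of the data. The 3 sequences are set side by side with the bases that differ from the member in capitals, and in the member those that differ from mdm-miR166d.
t09078889_x1129: tTggaTcaggcttcattcccc
mes-miR166i: ttggaCcaggcttcattcccc
mdm-miR166d: tCggaCcaggcttcattcccc

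The level of t09078889_x1129 was highest in the Stage 1 libraries. It was 137, 115 and 115 CPM at Stage 1, 95.8, 59.2 and 77.0 CPM at Stage 2, 78.1, 38.2 and 52.6 CPM at Stage 3 and 27.9, 44.4 and 46.1 CPM at Stage 4. Every later library was below every Stage 1 library, and Stages 2, 3 and 4 overlapped with their neighbours. Across the tested sequences, 12.6% had all Stage 2 libraries below Stage 1, 10.1% all Stage 3 libraries and 13.9% all Stage 4 libraries. Among the members, 2 had this at Stage 2 and 2 at Stage 4, the other being t08517492_x488 in both, and 2 had it at Stage 3, the other being t04954913_x13904. The mean was 39.5 ± 10.1 CPM at Stage 4, against 122 ± 12.8 CPM at Stage 1 (SD, n = 3 each).

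In edgeR, the log2 fold change of t09078889_x1129 for Stage 4 over Stage 1 was -1.63 (SE 0.65, adjusted p = 0.284). In ecodormancy against endodormancy it was -1.04 (SE 0.45, adjusted p = 0.405). Without libraries D and L, these values were -1.69 (SE 0.53, adjusted p = 0.111) and -0.88 (SE 0.36, adjusted p = 0.179). The difference therefore stayed short of the threshold after adjustment in edgeR with or without these libraries.

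The named relatives of t09078889_x1129 also had negative fitted differences. For Stage 3 over Stage 1, the log2 fold change was -1.12 for the member (SE 0.64), -0.77 for mes-miR166i (SE 0.50) and -0.84 for mdm-miR166d (SE 0.44). For Stage 4 over Stage 1, it was -0.13 for mes-miR166i (SE 0.50) and -0.33 for mdm-miR166d (SE 0.44), and without libraries D and L -0.80 (SE 0.37) and -0.90 (SE 0.24). Library L was the highest of the Stage 4 libraries in both relatives, and the difference between the member and its relatives was not tested. The member had 0.297, 0.356 and 0.358 reads per read of mes-miR166i in Stage 2, 0.523, 0.238 and 0.437 in Stage 3 and 0.216, 0.324 and 0.115 in Stage 4, against 0.490, 0.481 and 0.535 in Stage 1. Per 1000000 reads of mdm-miR166d, it had 68.6, 85.9 and 79.5 reads in Stage 2, 124, 69.9 and 93.1 in Stage 3 and 60.6, 74.0 and 32.4 in Stage 4, against 128, 114 and 112 in Stage 1. Both ratios, which do not depend on the scaling of the libraries, were below Stage 1 in all libraries of Stages 2 and 4, whereas library G of Stage 3 lay within the range of Stage 1. Library D held the lowest ratios of Stage 2 and library L those of Stage 4. How many other sequences have such ratios was not counted. Sequences that differ at 1 or 2 bases can share reads where mismatches are allowed, and the number allowed was not given in the sources used here.

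The hairpin of t08517492_x488 holds mdm-miR3627d, which had 1 read in all, at the position of its listed star. It lies at chr9:2848102-2848185 on the plus strand, and the start of the hairpin of mdm-miR3627b lies 180 bases further along the same strand. The member matched mdm-miR3627b (105 reads) in 16 of 18 aligned bases, with G6T and C16T counted on the named sequence, whose capitals and those of the member mark the bases that differ.
t08517492_x488: ttgtcgcaTgagagatggTac
mdm-miR3627b: tcgcaGgagagatggCacta

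The levels of t08517492_x488 were uneven within stages. It had 26.4, 37.3 and 64.3 CPM at Stage 1, 21.7, 12 and 20.7 CPM at Stage 2, 23.1, 25.8 and 119.8 CPM at Stage 3 and 8.25, 15.1 and 0 CPM at Stage 4, where the 0 belonged to library L. All Stage 2 and all Stage 4 libraries were below Stage 1, and library I of Stage 3 was the highest of all. In edgeR, the log2 fold change for Stage 4 over Stage 1 was -2.45 (SE 1.22, adjusted p = 0.519), and without D and L it was -1.79 (SE 0.86, adjusted p = 0.248).

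The shortest member, t03187209_x304, resembled a miR319 sequence. In Arabidopsis, the miR319 family is known for targeting mRNAs of TCP transcription factors, which act in leaf growth. That role is not ascribed here to the 5′-arm sequences below, whose targets were not examined. The member lay on the 5′ arm of a hairpin at chr1:27417466-27417704 on the plus strand, and differed from mdm-miR319d by A2G, shown in capitals.
t03187209_x304: aGctgccgactcattcactc
mdm-miR319d: aActgccgactcattcactca
The member had 304 reads, against 1105 of mdm-miR319d. It had 7.38, 92.9 and 29.1 CPM at Stage 1, 0, 33.5 and 11.8 CPM at Stage 2, 12.1, 54.2 and 8.24 CPM at Stage 3 and 6.19, 12.7 and 0 CPM at Stage 4. The highest values were those of libraries B (Stage 1) and H (Stage 3), and every stage overlapped with every other. The log2 fold change for Stage 4 over Stage 1 was -2.76 (SE 1.60, edgeR adjusted p = 0.682), and for mdm-miR319d it was -0.08 (SE 0.67). The value of the member was -2.04 (SE 1.15, adjusted p = 0.318) without D and L, -1.52 without library B and -3.82 without library K.

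The member nearest to the read limit, t10644006_x200, was shifted by 1 base against mdm-miR408c. The miR408 family is known in Arabidopsis for its response to copper, through mRNAs of copper-binding proteins. That role is not ascribed here to the 5′-arm sequences below, whose targets were not examined. Both sequences lay on the 5′ arm of the same hairpin, found at chr9:37498415-37498511 on the plus strand and at chr9:37002082-37002178 on the minus strand, and the 20 bases that they share are in capitals.
t10644006_x200: CAGGGAAGAGGTAGAGCATGg
mdm-miR408c: aCAGGGAAGAGGTAGAGCATG
The 3′ arm holds cca-miR408 and gma-miR408d, which had 9 and 8 reads. The member had 200 reads, against 121 of mdm-miR408c. It had 4.92, 5.81 and 14.1 CPM at Stage 1, 61.5, 0 and 1.97 CPM at Stage 2, 24.3, 3.69 and 11.4 CPM at Stage 3 and 33.0, 4.76 and 0 CPM at Stage 4. Library D held 68 of its 200 reads. In edgeR, the log2 fold change in ecodormancy against endodormancy was -0.04 (SE 1.28) with all libraries and 2.58 (SE 1.08, adjusted p = 0.183) without D and L. Its direction was not settled, since the value lay between -1.33 (without J) and 2.27 (without D) with 1 library left out and changed sign in 9 of the other settings and left-out libraries.

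The hairpin with the lowest free energy was that of t05533652_x933, for which no named sequence was found. At its locus on chromosome 5 the free energy was -97.7 kcal/mol, and all 21 bases of the mature sequence were paired. It was found at chr5:11645741-11645883 and at chr12:3679088-3679229, both on the minus strand. Both arms are shown because they are near-complementary, with the member from the 3′ arm and the star from the 5′ arm.
t05533652_x933: tTGGATAAaaaatgaacggtc
Star of t05533652_x933: ccgttcattttttatccaacg

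The level of t05533652_x933 had its highest mean at Stage 4. It was 37.5, 57.3 and 55.3 CPM at Stage 1, 0, 53.2 and 54.3 CPM at Stage 2, 79.8, 55.4 and 64.6 CPM at Stage 3 and 116, 97.5 and 75.3 CPM at Stage 4. All 3 Stage 4 libraries were above all Stage 1 libraries, as for 13.4% of the tested sequences, and it was the only member of which this was true. Library G of Stage 3 lay within the range of Stage 4. At Stage 3, 0 of 10 members were above Stage 1 in all libraries (9.24% of the tested sequences). The mean was 96.1 ± 20.2 CPM at Stage 4, against 50.0 ± 10.9 CPM at Stage 1 (SD, n = 3 each). In edgeR, the log2 fold change was 0.94 (SE 0.94, adjusted p = 0.809), and without D and L 1.19 (SE 0.47, adjusted p = 0.169). The SE was thus smaller without these libraries, and this member was listed at 0 in D. In ecodormancy against endodormancy, the value was 0.92 (SE 0.67, adjusted p = 0.701), and without D and L 0.85 (SE 0.34, adjusted p = 0.179).

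**Figure D4:**
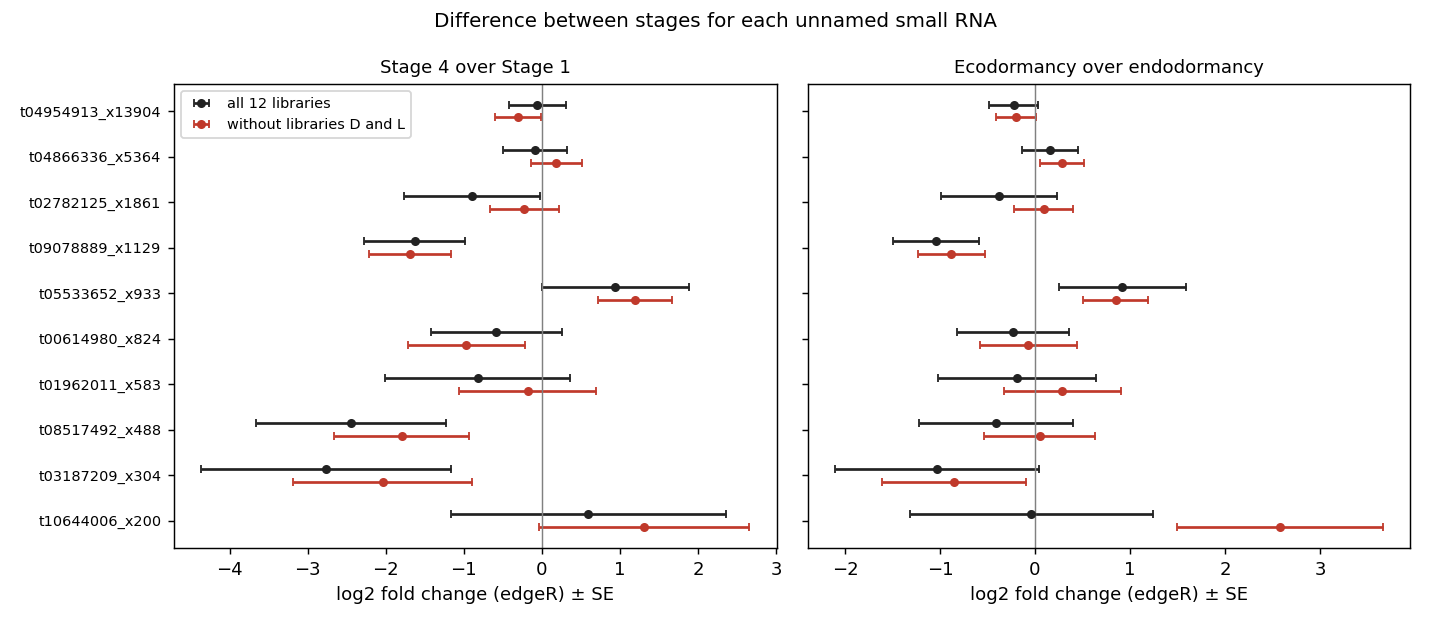
Log2 fold change (edgeR, ± SE) of each member at Stage 4 over Stage 1 and in ecodormancy over endodormancy, with all 12 libraries (black) and without libraries D and L (red). Values of t09078889_x1129, t04954913_x13904, t00614980_x824 and t03187209_x304 lie below 0 in each case, and those of t05533652_x933 above 0. In the comparison of ecodormancy, t10644006_x200 moves between -0.04 and 2.58.

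The 2 most abundant members had the lowest coefficients of variation. This measure also rises with counting error at low reads and with listed zeros, and their part was not tested. t04954913_x13904 had 1021, 919 and 864 CPM at Stage 1, 1203, 955 and 1013 CPM at Stage 2, 815, 794 and 809 CPM at Stage 3 and 662, 771 and 1262 CPM at Stage 4, a coefficient of variation of 19.2% over the 12 libraries. Its Stage 3 libraries were all below Stage 1, and library L was the highest of all. For Stage 3 over Stage 1, the log2 fold change was -0.21 (SE 0.36), and at Stage 4 -0.06 (SE 0.36), whereas both were positive, 0.42 and 0.37, when scaled by the total of mature reads. The hairpin strand mdm-miR168b had a log2 fold change of -0.26 at Stage 4 (SE 0.92).

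The second member, t04866336_x5364, comes from chr4:5016418-5016550 on the plus strand, from a hairpin that is predicted to branch. It had 320.4, 372 and 399 CPM at Stage 1, 214, 331 and 377 CPM at Stage 2, 449, 302 and 468 CPM at Stage 3 and 399, 379.7 and 249.6 CPM at Stage 4, a coefficient of variation of 21.2%. Libraries D and L were the lowest of the 12, and every stage overlapped with every other. Both members together made up 75.3% of the reads of the 10.

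The third member, t02782125_x1861, from chr10:644394-644488 on the plus strand, was listed at 0 in 1 library. It had 113, 88.0 and 122 CPM at Stage 1, 169, 168 and 124 CPM at Stage 2, 192, 105 and 212 CPM at Stage 3 and 100.1, 73.7 and 0 CPM at Stage 4. All Stage 2 libraries were above all Stage 1 libraries, as for 3.36% of the tested sequences, but its log2 fold change at Stage 2 was 0.52 (SE 0.86, edgeR adjusted p = 0.963). The 0 belonged to library L, the library with the most mature reads. For Stage 4 over Stage 1, the log2 fold change was -0.90 (SE 0.87) with all libraries and -0.23 (SE 0.44) without D and L.

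The remaining members were t00614980_x824 and t01962011_x583. t00614980_x824, from chr2:32549725-32549903 on the minus strand, had 73.8, 49.8 and 24.1 CPM at Stage 1, 94.0, 30.9 and 50.4 CPM at Stage 2, 88.5, 19.7 and 82.4 CPM at Stage 3 and 16.5, 31.7 and 50.2 CPM at Stage 4. t01962011_x583, from chr11:41034002-41034158 on the plus strand, had 51.7, 39.8 and 24.1 CPM at Stage 1, 38.0, 33.5 and 35.5 CPM at Stage 2, 113, 17.2 and 14.6 CPM at Stage 3 and 18.6, 46.8 and 0 CPM at Stage 4. Library G, of Stage 3, held the highest value of t01962011_x583 and library L its 0. The edgeR log2 fold changes for Stage 4 over Stage 1 were -0.58 (SE 0.84) and -0.82 (SE 1.18), and without D and L -0.97 (SE 0.75) and -0.18 (SE 0.88). With 1 library left out, the value of t00614980_x824 lay between -0.96 (without L) and 0.09 (without A), which turns its sign. That of t01962011_x583 lay between -2.08 (without K) and -0.18 (without L), and it was -0.01 when scaled by the total of mature reads. Every stage overlapped with every other in both members.

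For the 3 members with the most reads, the tested sequence with the most similar pattern was sought among 228 others by Pearson's r of log2(CPM + 0.5) over 12 libraries, which share the depth and the scaling of each library. It was mdm-miR166d for t04954913_x13904 (r = 0.91, and 0.84 without D and L). It was mdm-miR11011b for t04866336_x5364 (r = 0.90, and 0.67 without D and L), and mdm-miR11011b was listed at 0 in D and L, where this member was lowest. It was the unnamed t01106153_x1640 for t02782125_x1861 (r = 0.97, and 0.38 without D and L), and both of these were listed at 0 in library L. The last likeness thus rested mainly on the libraries left out, and that of t04866336_x5364 was weaker without them.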

How the data were processed

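Small RNAs of 12 bud libraries were sequenced by the authors (Illumina), mapped to GDDH13 v1.1 and quantified with Mir-Island, which lists database miRNAs and hairpins found de novo. The submitters' notes also name CASAVA and Bowtie 0.12.9. The trimming, the mismatches allowed and the treatment of reads with several loci were not given in the sources used here. The authors deposited raw read counts of the mature sequences, not normalized, which were used throughout. Libraries A to L are the numbered columns of the tables, placed in stages by the letters of the study's sample list, which gives no replicate number. Counts under letters A to K were equal to those of the columns for 99 of 99 sequences, and L was placed by its number alone. The 48 further per-library columns (star reads and scaled values) were not used, so the listed stars are described by sequence and not by reads. The 199 de novo rows and 254 rows of known sequences hold 370 distinct sequences. The 4 empty de novo lines were skipped.

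Counts were tested in R 4.3.3 with edgeR 4.0.16 (filterByExpr, minimum count 10, minimum total 15, TMM, quasi-likelihood F test, 1 model of 12 libraries with a mean per stage), adjusted over the 238 sequences kept. Alternatives were other scalings and filters, the likelihood ratio test, robust dispersion, DESeq2 1.42.0 and libraries left out. The fit was tested on simulated data. Hairpins were folded with RNAfold 2.7.2. Intervals are 95% Wilson intervals (SciPy 1.17.1), and a count of 0 was given a limit of 3 counts. At these depths, 3 counts are 1.73 to 3.69 CPM with TMM scaling, as used for the levels, and 1.30 to 5.34 CPM without it. No pair of libraries of a stage agreed within sampling noise. The members, the lists and the alternatives were chosen with earlier results of these data known. The text names the 10 members, the first sequence left out, the named sequences closest to a member or lying in its hairpin (at most 3 mismatches over 17 or more bases, or 1 within the hairpin) and, for the 3 members with the most reads, the tested sequence with the highest r. Buds of a stage were pooled per library, so p-values measure the spread between pools.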

Additional observations from a re-analysis of the deposited data

How the results depend on the processing

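No member passed an adjusted p of 0.05 in any comparison under the 9 other settings or with each library left out in turn (0 of 10 each, or 0 of the 4 that had 10 reads in every library). In the DESeq2 test for any change, a member without an adjusted p counted as not called. Counts over all tested sequences moved more. For any change among the 4 stages, 3 sequences were called, against 5 with median-of-ratios scaling, 11 with no filter, 10 with at least 10 reads in every library, 6 by the likelihood ratio test, 16 by DESeq2 and 7 without D and L (1 to 13 with 1 library left out, where 1 was without E, 5 without A or F, 9 without D and 13 without H). At Stage 3 against Stage 1, 1 was called, against 2 with the total of mature reads, 4 with no filter, 5 with 10 reads in every library and 6 by DESeq2 (1 to 2 with 1 left out, 2 without H). At Stage 4 against Stage 1, 3 were called, against 5 with no filter, 6 with 10 reads in every library, 7 by DESeq2 and 6 without D and L (1 to 4 with 1 left out, 1 in each case except without D or H). In ecodormancy against endodormancy, 3 were called, against 6 with no filter, 5 with 10 reads in every library, 7 by the likelihood ratio test, 8 by DESeq2 and 6 without D and L (2 to 4 with 1 left out). At Stage 2, 0 were called throughout. The share of the members was 0.168 to 0.179% of mature reads with 1 library left out. The scaling by the authors' per-million values was not run, since those columns were not used. The causes were not tested. Scaling by the total of mature reads shifted log2 fold changes against Stage 1 by 0.62 at Stage 3 and by 0.47 at Stage 4. With it, t04866336_x5364 had 0.76 and 0.59, against 0.16 and -0.09 with TMM, so no direction is given for it. The log2 fold change of t09078889_x1129 at Stage 4 was negative in every setting, between -1.74 and -1.14, with an unadjusted p of 0.00631 to 0.115. No paired analysis was possible because the columns carry no replicate number. For t01962011_x583, t08517492_x488, t03187209_x304 and t10644006_x200, the SE of the log2 fold change for Stage 4 over Stage 1 was 1.18, 1.22, 1.60 and 1.76. Changes well above that size could therefore be missed. At -2.45, t08517492_x488 had an edgeR adjusted p of 0.519, and at -2.76, t03187209_x304 had 0.682.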
